A study of Rattus norvegicus with 11 samples.

Results

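A set of 8 genes of secreted plasma proteins were followed across rat lung epithelial cells: Fgg, Crp, A2m, Hp, C3, Cp, Kng2 and Clu. They make up 8 of the 4736 genes that have a probe set of their own on the array, and 19 of the 8740 probe sets tested. They were selected on their log2 differences between the groups of these same arrays, so their values below are a description without a test. A probe set, which is a group of short oligonucleotides read as 1 value, was taken where its annotation named exactly 1 gene and that gene was among the 8. Fgg and C3 had 2 such probe sets each, Crp and Cp had 3 each, A2m had 6, and Hp, Kng2 and Clu had 1 each. Total RNA was hybridised to 11 rat Affymetrix expression arrays: 4 of freshly isolated alveolar type I (TI) cells at day 0, 4 of freshly isolated type II (TII) cells at day 0, and 3 of TII cells in culture at day 7. The groups come from the titles and descriptions, because the source field carries the same TI wording throughout. The labels state no strain, sex, age, culture medium or substrate, and name no treatment or genotype. Nor do they state whether replicate arrays stand for different animals or whether animals were pooled, so the errors below measure the spread between these arrays, which may be technical.

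Acute-phase proteins are plasma proteins whose production by the liver changes in inflammation, when cytokines such as interleukin-6 and interleukin-1 act on hepatocytes through the transcription factors STAT3, C/EBP and NF-kB. They include clotting factors, complement, opsonins, protease inhibitors and carriers of metal and haem. In the lung, TII cells make surfactant and several host-defence proteins, while the thin TI cells form most of the gas-exchange surface. TII cells in culture are known to lose surfactant genes and to gain some TI features, which is the background to comparing all 3 groups.

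The fresh TI and fresh TII cells differed in the markers of their labels, while the cultured TII cells read lowest for the TII markers. All 5 measured TI markers were higher in fresh TI than in fresh TII cells, and their mean signal spanned 9.76 to 10.2 (log2) on the fresh TI arrays against 6.18 to 6.25 on the fresh TII arrays and 7.50 to 8.15 on the cultured arrays. All 5 measured TII markers were lower in fresh TI and in cultured cells than in fresh TII cells. Their mean signals were 8.34 to 9.84 in fresh TI, 11.9 to 12.1 in fresh TII and 5.94 to 6.77 in cultured cells. Sftpc differed least between the fresh groups, with means of 11.9 in fresh TI and 13.1 in fresh TII cells, and averaged 5.12 in culture. In the other lists, 5 of 8 fibroblast and smooth muscle markers were called higher in fresh TI cells and 0 were called lower (mean signal 6.82 to 7.34, against 5.93 to 6.34 in fresh TII and 5.72 to 6.45 in cultured cells). Of 6 macrophage and leukocyte markers, fresh TI cells had 1 higher and 2 lower, and 2 were higher and 1 lower in cultured cells. Arrays of the same group correlated at 0.978 to 0.998 over all probe sets and arrays of different groups at 0.913 to 0.947.

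The genes did not move as a block. A difference was called where its Benjamini-Hochberg adjusted p-value in a limma fit over all 8740 probe sets was under 0.05. In fresh TI against fresh TII cells, 6 of the 19 probe sets were called higher, beside 34.3% of all probe sets, and 6 were called lower, beside 20.4%. In cultured against fresh TII cells, 2 were called higher, beside 19.1%, and 10 lower, beside 14.3%. In fresh TI against cultured TII cells, 10 were called higher, beside 35.7%, and 3 lower, beside 24.2%. With each gene read from its brightest probe set (the one with the highest mean over the 11 arrays), 1 of the 8 genes was called higher in fresh TI than in fresh TII cells, beside 33.0% of all genes, and 4 were called lower, beside 21.2%. By the same reading, 2 were called higher in culture, beside 20.5%, and 5 lower, beside 14.0%. The 1 gene higher in fresh TI cells was Crp on M13101cds_f_at, which is also among the 5 lower in culture. Whether that probe set reads Crp transcripts was not tested. Nothing is read from these counts, since the choice of genes used these comparisons. The comparisons also share the fresh TII arrays. The median difference of the 19 probe sets was 0.06 in fresh TI against fresh TII cells, where that of all probe sets was 0.12, and -0.29 in cultured against fresh TII cells, where that of all probe sets was -0.01.

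**Figure D1:**
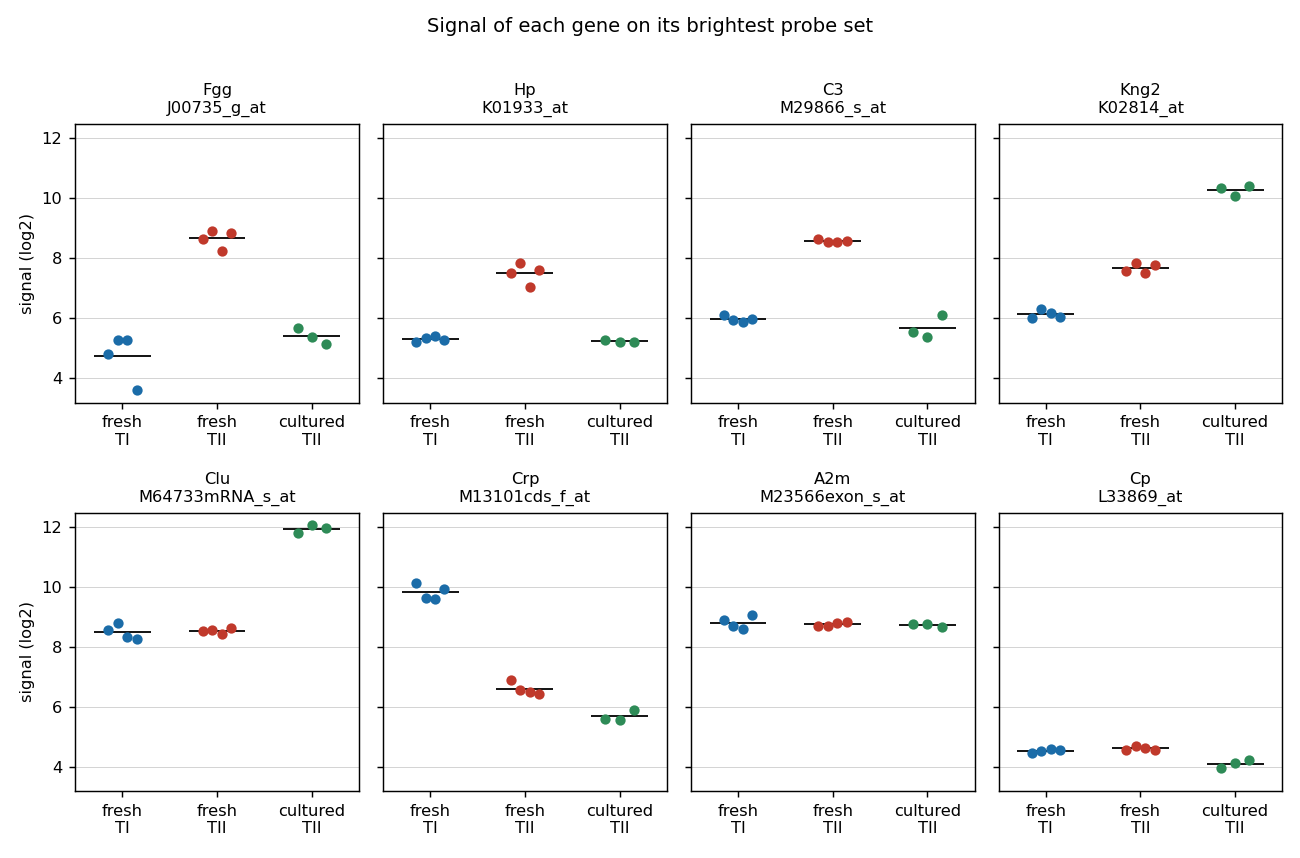
Signal of the 8 genes on their brightest probe sets. Each point is 1 array (vertical axis, log2 signal), the black line is the group mean, and the groups are fresh TI (n = 4), fresh TII (n = 4) and cultured TII (n = 3); probe sets differ in affinity, so heights are comparable only within a panel. Fgg, Hp and C3 are high in fresh TII cells alone of the 3 groups, and Kng2 and Clu are highest in culture. The Crp probe set shown, M13101cds_f_at, is highest in fresh TI cells. On the Crp probe set rc_AA818144_at, not shown here, the groups overlap, and whether M13101cds_f_at reads Crp transcripts was not tested.

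The genes Fgg, Hp and C3 had their highest signal in fresh TII cells and were several-fold lower in both other groups. Fgg encodes a chain of fibrinogen, the clotting protein that thrombin turns into fibrin. On its brighter probe set, J00735_g_at, Fgg read 8.65, 8.92, 8.26 and 8.84 (log2) on fresh TII arrays 1 to 4. The fresh TI arrays read 4.79, 5.28, 5.28 and 3.61, and the cultured arrays 5.67, 5.38 and 5.15. Every fresh TII array lay above every other array, and fresh TI and cultured arrays overlapped. Fgg was 3.93 ± 0.31 (SE of the fit, here and below) lower on the log2 scale in fresh TI than in fresh TII cells, a 15.2-fold difference, and 9.63-fold lower in culture than in fresh TII cells (log2 difference -3.27 ± 0.33). The other Fgg probe set, J00735_at, gave 5.96, 6.25, 5.64 and 6.20 in fresh TII cells, 3.12, 3.34, 3.14 and 3.13 in fresh TI cells and 3.74, 3.71 and 3.43 in culture. Its differences were smaller, at -2.83 ± 0.13 for fresh TI and -2.39 ± 0.14 for culture, both against fresh TII, and it correlated at r = 0.977 with the brighter probe set over the 11 arrays. On J00735_at the fresh TI arrays all lay below the cultured arrays, by 0.45 ± 0.14 on average, while on J00735_g_at that gap was 0.66 ± 0.33 with overlapping arrays.

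Haptoglobin binds free haemoglobin and delivers it for clearance. Its probe set, K01933_at, read 7.50, 7.86, 7.03 and 7.62 in fresh TII cells. It read 5.22, 5.35, 5.41 and 5.28 in fresh TI cells and 5.29, 5.22 and 5.22 in culture. Fresh TII arrays stood apart from both other groups, which overlapped each other. Hp was 4.56-fold lower in fresh TI (log2 difference -2.19 ± 0.14) and 4.80-fold lower in culture (-2.26 ± 0.15) than in fresh TII cells, and fresh TI and cultured cells differed by 0.07 ± 0.15.

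C3 is the protein on which the complement pathways converge. On M29866_s_at the fresh TII arrays read 8.65, 8.54, 8.53 and 8.57, the fresh TI arrays 6.10, 5.92, 5.89 and 5.96, and the cultured arrays 5.54, 5.37 and 6.10. The 4 fresh TII arrays lay within 0.12 of each other and above all others, while cultured array 3 reached the fresh TI range. C3 was 6.08-fold lower in fresh TI and 7.50-fold lower in culture than in fresh TII cells. The second C3 probe set, X52477_at, gave 4.01-fold and 5.32-fold for the same comparisons and correlated with the first at r = 0.994. Between fresh TI and cultured cells, C3 differed by 0.30 ± 0.14 on M29866_s_at and by 0.41 ± 0.13 on X52477_at. Without cultured array 3 these values were 0.52 and 0.62, and without cultured array 1 the second was 0.26 and no longer called.

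The fresh TII arrays kept 1 order in several genes. Array 2 read highest, then array 4, array 1 and array 3 for both Fgg probe sets, for Hp and for Kng2, over a range of 0.62 for J00735_at, 0.66 for J00735_g_at, 0.83 for Hp and 0.32 for Kng2. C3 did not follow that order. The order was noticed after the values were seen, Clu did not follow it either, and all these probe sets were read from the same 4 arrays.

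Markers of another cell type moved with Fgg, Hp and C3. The 3 measured airway markers had a mean signal of 8.37 to 8.65 on the fresh TII arrays, 5.84 to 5.99 on the fresh TI arrays and 5.83 to 6.14 on the cultured arrays, and all 3 were called lower in both groups than in fresh TII cells. Scgb1a1, the club cell secretory protein, was lower by 3.31 ± 0.13 in fresh TI and by 2.62 ± 0.14 in culture (limma adjusted p = 1.01e-09 and 1.31e-08). Cyp2f4, a club cell cytochrome P450, fell by 4.07 ± 0.09 and by 4.39 ± 0.10 (limma adjusted p = 2.32e-11 and 1.09e-11). Foxj1, the ciliated cell transcription factor, differed by -0.29 and -0.38, and both calls were lost without fresh TII array 1 or 4. The part of airway cells in the Fgg, Hp and C3 signals was not tested. In these bulk samples, fewer cells of a type and less RNA per cell cannot be told apart.

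The sequence before the start sites can be set beside these values. Windows of 250 bases upstream of the start site were available from RefSeq (build GRCr8) for 5 of the 8 genes: Fgg, Crp, C3, Cp and Kng2. The windows of Fgg, C3 and Kng2 are printed 5′ to 3′ in the direction of transcription, because Fgg and C3 were both high in fresh TII cells and Kng2 was not highest there. Capitals mark matches to the motifs searched on both strands: CTGGGAA, a core of interleukin-6 response elements, and TTNNGCAA, a core of C/EBP sites.
Fgg, chr2:170652833-170653082, plus strand: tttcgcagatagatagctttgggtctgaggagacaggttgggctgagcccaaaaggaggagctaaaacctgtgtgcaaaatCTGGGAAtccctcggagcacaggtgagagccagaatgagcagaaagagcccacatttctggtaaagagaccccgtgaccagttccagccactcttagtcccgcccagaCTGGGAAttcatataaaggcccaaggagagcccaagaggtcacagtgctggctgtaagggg
C3, chr9:2201340-2201589, minus strand: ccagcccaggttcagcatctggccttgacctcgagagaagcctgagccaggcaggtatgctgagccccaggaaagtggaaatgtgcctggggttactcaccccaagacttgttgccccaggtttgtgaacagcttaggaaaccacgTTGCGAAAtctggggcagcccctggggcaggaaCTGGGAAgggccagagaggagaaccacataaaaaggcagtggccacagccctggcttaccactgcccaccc
Kng2, chr11:91418220-91418469, plus strand: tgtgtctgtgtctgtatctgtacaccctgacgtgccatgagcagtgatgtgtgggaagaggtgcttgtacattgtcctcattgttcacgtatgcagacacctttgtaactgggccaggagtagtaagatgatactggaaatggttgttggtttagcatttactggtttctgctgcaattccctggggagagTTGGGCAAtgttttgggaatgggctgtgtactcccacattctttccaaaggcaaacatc
The Fgg window held CTGGGAA at 2 places, 169 to 163 and 61 to 55 bases upstream. The C3 window held it 71 to 65 bases upstream, and TTNNGCAA on the opposite strand 104 to 97 bases upstream. Kng2 held TTNNGCAA 59 to 52 bases upstream and Cp 72 to 65 bases upstream, and the Crp window held neither. No window of the 5 held TTCNNNGAA, the STAT palindrome. Of all 27457 such windows, 9.33% held CTGGGAA, 9.2% held TTNNGCAA and 7.52% held TTCNNNGAA. A match is a description of letters and not a site.

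The other fibrinogen chains gave other values than Fgg. Fga and Fgb encode the alpha and beta chains. Among protein-coding genes in the RefSeq order, Fga lies next to Fgg, and Fgb next to Fga on its other side. Fga read 3.92, 4.15, 3.90 and 4.27 in fresh TI cells, 3.81, 3.57, 3.65 and 3.58 in fresh TII cells and 3.46, 3.64 and 3.59 in culture. It was 0.41 ± 0.09 higher in fresh TI than in fresh TII cells (limma adjusted p = 0.00349), or 0.27 where each array's standard deviation was matched, and its other 2 probe sets gave 0.31 and 0.15, the latter not called. In culture Fga differed from fresh TII by -0.09 ± 0.10, which was not called. Fgb differed by 0.08 ± 0.09 in fresh TI and by -0.13 ± 0.09 in culture, neither of them called, while its second probe set gave 0.41 in fresh TI cells. No Fga or Fgb probe set was called lower in fresh TI or in cultured cells. The brightest of each read 3.46 to 4.27 on all arrays, below the array medians of 5.43 to 5.51. The dimmer Fgg probe set, J00735_at, read 3.12 to 3.34 in fresh TI cells and 5.64 to 6.25 in fresh TII cells. How far the Fga and Fgb probe sets can register a difference was not tested.

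The lists that follow count each gene by its brightest probe set, and their counts stand beside the shares of all genes given above: 33.0% called higher and 21.2% lower in fresh TI, and 20.5% higher and 14.0% lower in cultured, against fresh TII cells. The medians over all genes were 0.11 and -0.01. Among the other acute-phase plasma proteins, 20 of 43 listed genes were measured. In fresh TI against fresh TII cells 6 of them were called higher and 1 lower, with a median of 0.15 where that of all genes was 0.11. Under quantile normalization 3 were called higher, a count given without the share of all genes under that setting. In cultured against fresh TII cells 0 were called higher and 4 lower, with a median of -0.10 where that of all genes was -0.01. Lcn2, the siderophore-binding lipocalin, was the 1 gene called lower in fresh TI cells. It read 10.4, 9.91, 9.68 and 9.94 in fresh TII cells, 5.53, 5.81, 6.36 and 5.15 in fresh TI cells and 5.83, 7.40 and 8.91 in culture. Every fresh TII array lay above the rest, and the cultured arrays were spread over more than 3 log2 units, highest on array 3. Lcn2 was lower by 4.26 ± 0.48 in fresh TI (limma adjusted p = 1.39e-05) and by 2.60 ± 0.52 in culture (limma adjusted p = 0.00157). Lbp, which binds bacterial lipopolysaccharide, fell by 0.77 ± 0.11 in culture (limma adjusted p = 0.000145). The protease inhibitors Serpina3m and Serpina3c were higher in fresh TI cells by 0.48 and 0.45.

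Liver genes as a whole gave small differences. Of 20 measured hepatocyte markers, 10 were called higher in fresh TI cells and 0 were called lower, with a median of 0.22, and 1 was called higher and 0 lower in culture, with a median of -0.03. Their mean signal was 5.22 to 5.41 in fresh TI, 5.01 to 5.10 in fresh TII and 5.07 to 5.22 in cultured cells. The largest of the called differences in fresh TI cells was that of Cyp2c11, a liver cytochrome P450, at 0.58 ± 0.08 (limma adjusted p = 7.41e-05), ahead of Tat, Fga and Ahsg at 0.45, 0.41 and 0.39. Alb, serum albumin, was 0.23 ± 0.06 higher in fresh TI cells (limma adjusted p = 0.00929) and differed by 0.07 ± 0.07 in culture, which was not called. The 1 marker called higher in culture was Arg1, arginase, by 2.91 ± 0.47 (limma adjusted p = 0.000266). Its cultured arrays read 6.36, 8.36 and 9.26. The macrophage and leukocyte markers Fcgr2b and Itgam were higher in culture than in fresh TII cells by 1.78 and 0.57. Both were also lowest on cultured array 1 and highest on array 3, as Lcn2 was. So were genes of other lists, among them the TI marker Pdpn, the fibroblast marker Dcn, and Hmox1 and Tfrc. On the brighter C3 probe set, M29866_s_at, array 3 was highest but array 1 was not lowest. In the macrophage and leukocyte list, Lyz2 was lower in culture by 2.46 (limma adjusted p = 0.000113), and 3 markers were not called. The list had a mean signal of 5.71 to 6.45 in culture against 6.03 to 6.07 in fresh TII cells. The part of such cells in the Arg1, Lcn2 and C3 values of the cultured arrays was not tested. Other probe sets of these liver genes differed from the brightest: in culture Rbp4, the retinol carrier, was called lower on both of its others (-0.63 and -1.12), and Serpina1 and Apoa1 on 1 other each (-0.46 and -0.48), Apoa1 also in fresh TI cells (-0.29).

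**Figure D2:**
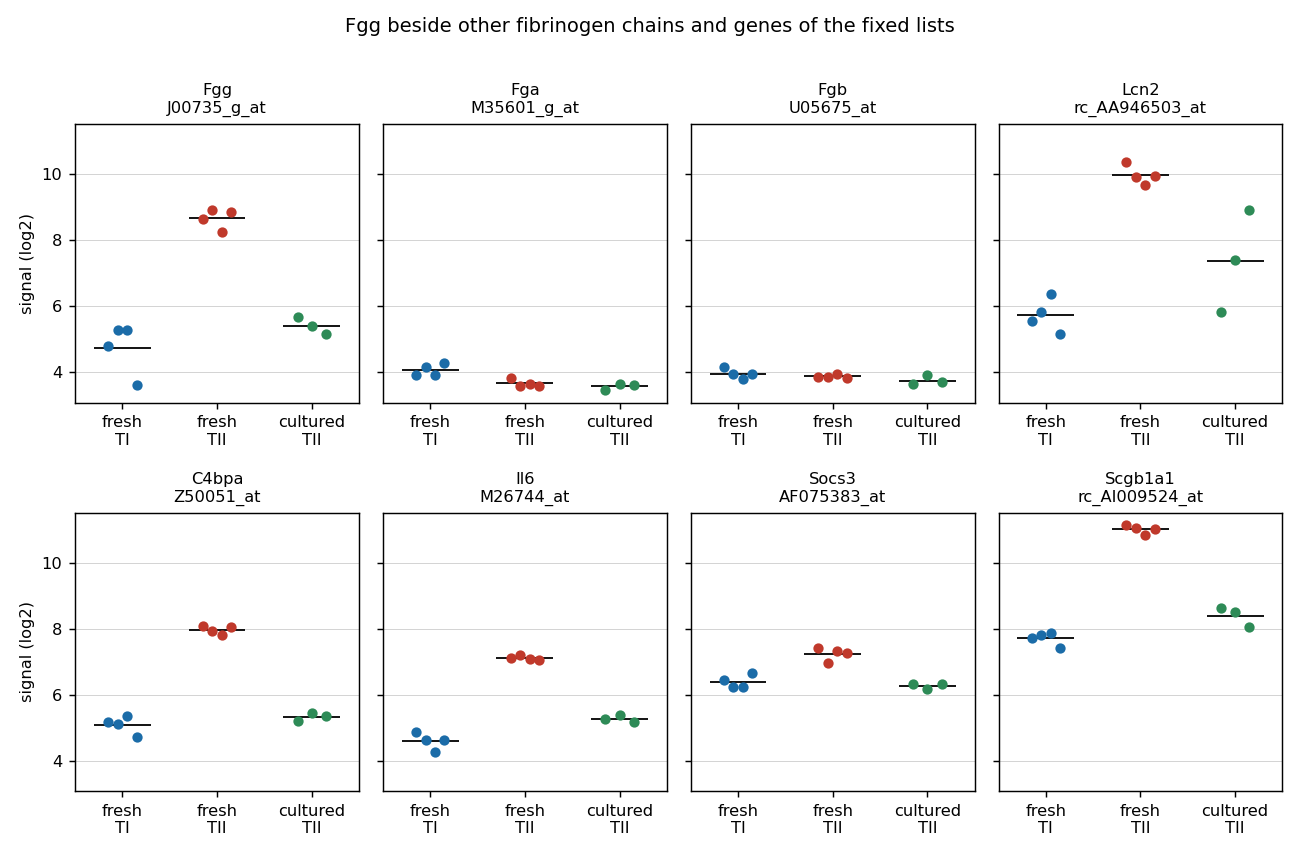
Fgg beside 7 genes of the context lists. Each point is 1 array (vertical axis, log2 signal), lines are group means, and groups are fresh TI (n = 4), fresh TII (n = 4) and cultured TII (n = 3); heights are comparable only within a panel. Fga and Fgb stay between 3.46 and 4.27 on all arrays, while Lcn2, C4bpa, Il6, Socs3 and Scgb1a1 are highest in fresh TII cells, as Fgg is.

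The complement genes around C3 differed among themselves. Of 20 measured, fresh TI cells had 9 called higher than fresh TII cells and 1 called lower (median 0.25), and 3 were called higher and 3 lower in culture (median -0.06). The 1 lower in fresh TI cells was C4bpa, a chain of the C4b-binding protein that restrains the classical pathway. C4bpa read 8.09, 7.95, 7.82 and 8.05 in fresh TII cells, 5.16, 5.13, 5.35 and 4.71 in fresh TI cells and 5.21, 5.43 and 5.35 in culture. It was lower by 2.89 ± 0.12 in fresh TI and by 2.65 ± 0.13 in culture (limma adjusted p = 1.34e-09 and 4.73e-09). In the other direction, the classical pathway proteases C1s and C1r and their inhibitor Serping1 were higher in fresh TI cells by 1.95 ± 0.14, 1.34 ± 0.17 and 1.62 ± 0.12 (limma adjusted p = 1.59e-07, 3.26e-05 and 2.79e-07). Fibroblast markers were higher in the same cells, among them Col3a1, Eln and Col1a2 by 2.52, 1.82 and 1.33, while 3 of that list were not called. C1s, C1r, Col3a1 and Col1a2 were all highest on fresh TI array 2 and lowest on array 4. Serping1 and Eln were also highest on array 2 but lowest on array 3. That first order was not particular to fibroblast markers. The TII markers Sftpb and Muc1 and the leukocyte markers Lyz2 and Fcgr2b were also highest on array 2 and lowest on array 4. Other markers of those lists, such as Sftpc and Cd14, did not follow it. The part of fibroblasts in the complement values was not tested. In culture, Cd59b, a membrane inhibitor of complement, fell by 0.86 ± 0.08 (limma adjusted p = 3.2e-06). Cd55, another membrane inhibitor, rose by 0.70 ± 0.20 (limma adjusted p = 0.017), and its second probe set by 0.66. The first of these Cd55 calls was lost without cultured array 1, at 0.48, or fresh TII array 3, at 0.59. Cfd rose by 0.61 ± 0.16 (limma adjusted p = 0.00873), or 0.37 without cultured array 3.

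Kng2 and Clu were highest in cultured cells, and they differed in the fresh cells. Kng2 encodes a kininogen, the precursor of the kinins and an inhibitor of cysteine proteases. Its probe set K02814_at read 10.33, 10.09 and 10.43 in culture, 7.57, 7.83, 7.51 and 7.77 in fresh TII cells and 6.01, 6.31, 6.17 and 6.04 in fresh TI cells. The 3 groups did not overlap, in the order cultured TII, fresh TII, fresh TI. Kng2 was 6.11-fold higher in culture than in fresh TII cells (log2 difference 2.61 ± 0.11), 2.91-fold lower in fresh TI than in fresh TII cells (-1.54 ± 0.10) and 17.8-fold lower in fresh TI than in cultured cells. A second probe set of the same record, K02814_g_at, is annotated to Kng1, Kng2l1 and Kng2 together and is outside the rule. It gave 1.89 in culture and -2.25 in fresh TI cells and correlated with K02814_at at r = 0.974. Kng1 and Kng2l1 flank Kng2 in the RefSeq gene order, and near-identical copies can share probes, so the split of signal among them is uncertain.

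Clu encodes clusterin, a secreted chaperone that also restrains the terminal complement complex. Its probe set M64733mRNA_s_at read 11.80, 12.07 and 11.96 in culture, 8.54, 8.57, 8.45 and 8.63 in fresh TII cells and 8.57, 8.82, 8.32 and 8.26 in fresh TI cells. Cultured arrays lay above all fresh arrays, and the fresh groups overlapped. Clu was 10.5-fold higher in culture than in fresh TII cells (3.39 ± 0.12) and 10.9-fold higher than in fresh TI cells, while fresh TI and fresh TII cells differed by -0.06 ± 0.11, or 0.25 after quantile normalization.

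The cultured arrays also differed in a measure of RNA. For beta-actin, the signal of the 3′ control probe set less that of the 5′ one was -0.33 to -0.08 in culture, against 0.21 to 0.43 in fresh TI and 0.32 to 0.43 in fresh TII cells. For GAPDH it was 0.30 to 0.45, 0.41 to 0.69 and 0.47 to 0.57. Its part in the Kng2 and Clu differences was not tested.

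Of the kinin system, 10 of 15 listed genes were measured. In fresh TI cells 3 were called higher and 1 lower (median 0.29), and in culture 2 were called higher and 1 lower (median 0.06). Mme, neprilysin, which degrades kinins, fell by 0.95 ± 0.09 in fresh TI and by 1.22 ± 0.09 in culture (limma adjusted p = 1.94e-06 and 3.52e-07). The cystatin Cst3, a cysteine protease inhibitor, rose by 0.64 ± 0.07 and by 1.02 ± 0.08 (limma adjusted p = 9.67e-06 and 2.55e-07). The kinin receptors Bdkrb1 and Bdkrb2 gave 0.34 ± 0.15 and 0.29 ± 0.12 in fresh TI cells and -0.09 ± 0.16 and 0.20 ± 0.13 in culture, with no call. The second Bdkrb1 probe set was called higher in fresh TI cells, at 0.33 (limma adjusted p = 0.0403), and both receptors gained a call there under some alternatives, Bdkrb1 at 0.43 after quantile normalization and Bdkrb2 at 0.40 without fresh TI array 2.

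**Figure D3:**
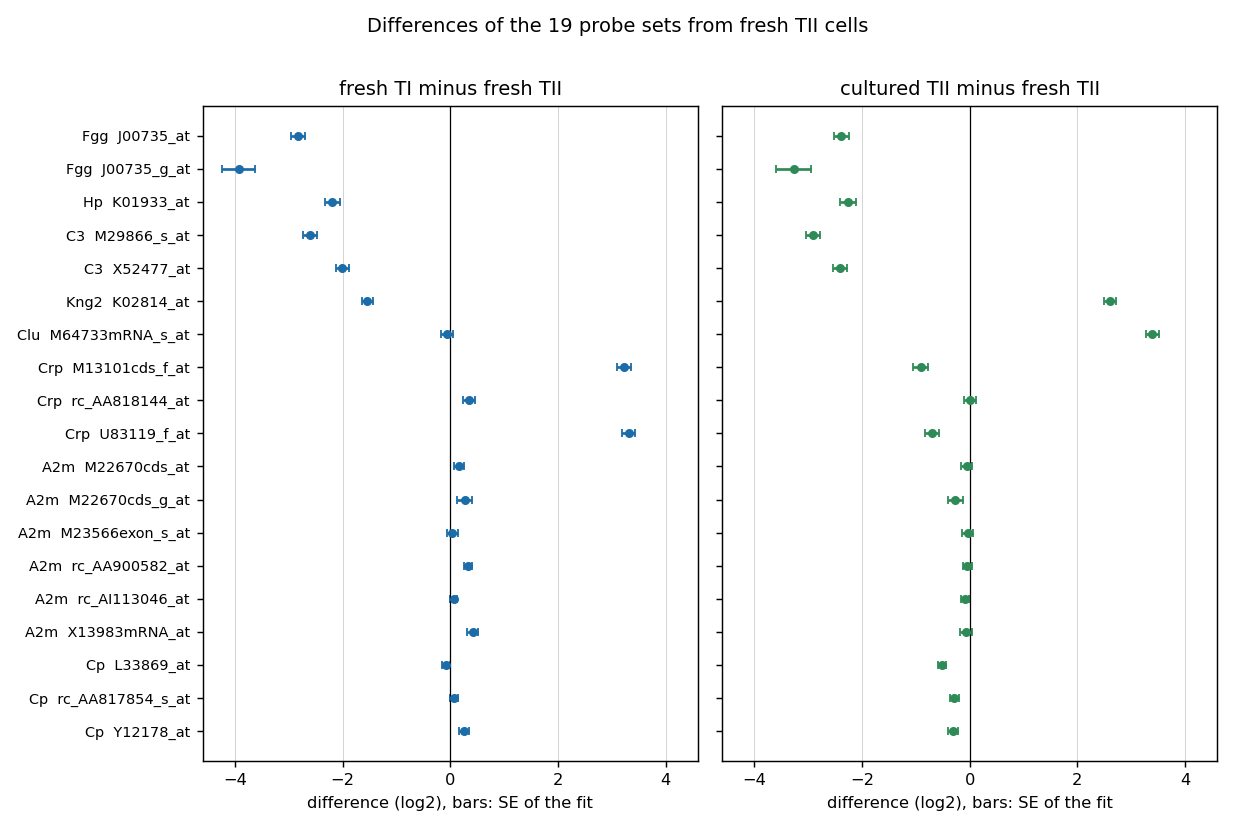
Differences of all 19 probe sets from fresh TII cells. Points are log2 differences and bars the SE of the limma fit, for fresh TI minus fresh TII (left) and cultured TII minus fresh TII (right), with n = 4, 4 and 3 arrays. The probe sets of Fgg and of C3 lie on the same side of 0 in both panels, whereas 1 Crp probe set lies near 0 and the other 2 lie near 3 on the left.

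Crp gave different answers on its 3 probe sets. C-reactive protein is a pentraxin that binds phosphocholine on microbes and dying cells and activates complement. On M13101cds_f_at the fresh TI arrays read 10.13, 9.63, 9.60 and 9.95, the fresh TII arrays 6.89, 6.58, 6.49 and 6.45, and the cultured arrays 5.61, 5.56 and 5.90. On U83119_f_at they read 9.86, 9.65, 9.46 and 9.79 in fresh TI cells, 6.67, 6.19, 6.38 and 6.27 in fresh TII cells and 5.56, 5.57 and 5.89 in culture. On both, the 3 groups were apart, in the order fresh TI, fresh TII, cultured TII. The third, rc_AA818144_at, read 4.64, 4.85, 4.71 and 4.44 in fresh TI cells, 4.33, 4.36, 4.11 and 4.46 in fresh TII cells and 4.18, 4.33 and 4.46 in culture. Here the groups overlapped.

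The Crp difference between fresh TI and fresh TII cells was 9.36-fold on M13101cds_f_at (3.23 ± 0.13), 9.94-fold on U83119_f_at (3.31 ± 0.12) and 1.27-fold on rc_AA818144_at (0.35 ± 0.10). The call of the last was lost under quantile normalization, at 0.23, and with matched standard deviations, at 0.24. In culture the values were -0.91 ± 0.15, -0.71 ± 0.13 and 0.01 ± 0.11 against fresh TII cells. The first and second probe sets correlated at r = 0.998 over the 11 arrays, and with the third at r = 0.745 and 0.758. The 11 points share 3 groups. Another probe set, X61295cds_s_at, is annotated to Serinc1 and Crp together and is outside the rule. It gave 2.88 in fresh TI and -1.18 in culture, and r = 0.995 with M13101cds_f_at.

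The 12 probe sets of any annotation most like M13101cds_f_at were then listed, a choice made after its values were seen. Of these, 9 carry no gene in the annotation, 1 is the other Crp probe set U83119_f_at, 1 is X61295cds_s_at and 1 is X07686cds_s_at, annotated to Rpl19l4. Their correlations with M13101cds_f_at were 0.992 to 0.999. The 9 without a gene differed by 2.35 to 3.32 between fresh TI and fresh TII cells, with a median of 2.92, and by -1.25 to -0.75 in culture, so both bright Crp probe sets lay inside the first range, and M13101cds_f_at lay inside the second with U83119_f_at just above it. These 9 were picked for likeness: all 13 probe sets without a gene from the same records spanned 1.01 to 3.32 in fresh TI cells, with a median of 2.71. The probe set rc_AA818144_at ranked 2236 of 8739 in the same order. The record names of these probe sets, M13100, M13101, X53581, X05472, X61295, X61296, X07686 and U83119, are entries for the rat long interspersed repeat L1, a transposable element with many copies in the genome, and the suffix _f marks a probe set shared by a family of sequences. That is background, and no probe sequence was read here. Whether the signal of M13101cds_f_at and U83119_f_at came from Crp transcripts was not tested. Of single-gene probe sets of genes other than Crp, the most like were those of Rpl19l4 (r = 0.996), Cyp27a1 (0.991) and Gsta4 (0.988).

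**Figure D4:**
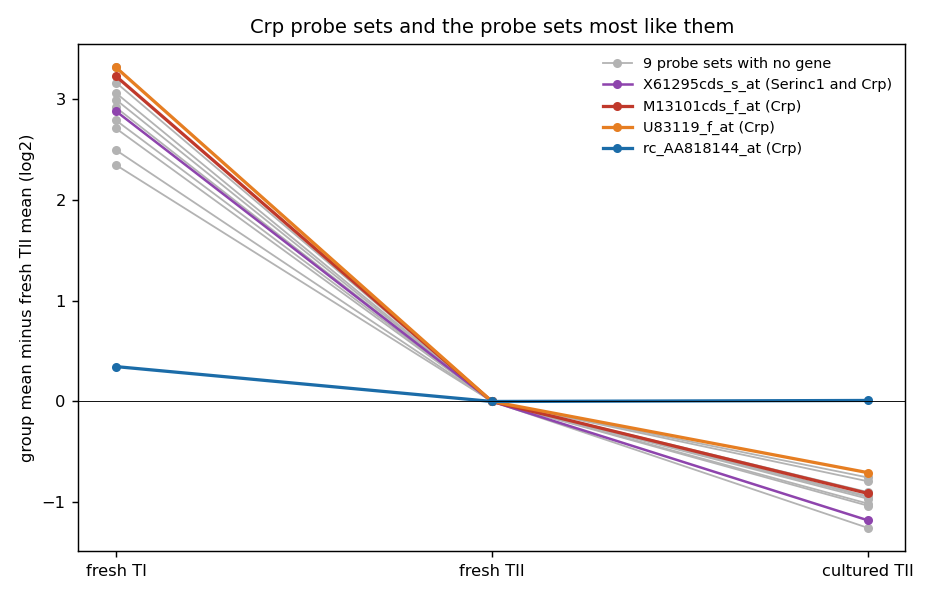
Group means of the Crp probe sets, and of the probe sets most like them, relative to the fresh TII mean. The vertical axis is a log2 difference, each line is 1 probe set, and grey lines are the 9 probe sets without a gene among the 12 most like. Of the lines drawn, that of rc_AA818144_at lies at 0.35 in fresh TI cells and the others between 2.35 and 3.32; X07686cds_s_at, at 3.39, is not drawn.

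A2m and Cp differed by less than 1 log2 unit on every probe set in every comparison. A2m encodes alpha-2-macroglobulin, a broad protease trap and a classic acute-phase protein of the rat. Its 6 probe sets differed by 0.04 to 0.41 between fresh TI and fresh TII cells and by -0.27 to -0.04 in culture. The brightest, M23566exon_s_at, read 8.90, 8.69, 8.59 and 9.07 in fresh TI cells, 8.71, 8.71, 8.81 and 8.85 in fresh TII cells and 8.79, 8.75 and 8.65 in culture. All 3 groups overlapped there. Only rc_AA900582_at (0.32 ± 0.07) and X13983mRNA_at (0.41 ± 0.10) were called higher in fresh TI cells, and their fresh TI arrays lay above all fresh TII arrays. Under matched standard deviations the sign of M22670cds_at turned to -0.02 and that of rc_AI113046_at to -0.20, where it was called lower. The brightest probe set moved from 0.04 to 0.34 under quantile normalization and to 0.20 with matched standard deviations, and against cultured cells it was then called higher in fresh TI cells, by 0.47, under quantile normalization. The 6 probe sets correlated with each other at r = 0.0735 to 0.946, the latter between the 2 called ones.

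Cp encodes ceruloplasmin, the copper-carrying ferroxidase of plasma. The probe set L33869_at read 4.57, 4.71, 4.63 and 4.56 in fresh TII cells, 4.47, 4.54, 4.59 and 4.56 in fresh TI cells and 3.98, 4.12 and 4.23 in culture. Cultured arrays lay below all fresh arrays, by 0.51 ± 0.08 against fresh TII cells, and the fresh groups overlapped. The other Cp probe sets gave -0.29 ± 0.09 (rc_AA817854_s_at) and -0.30 ± 0.10 (Y12178_at) in culture. Those 2 calls were lost under several alternatives, among them leaving out cultured array 3, at -0.21 and -0.28. In fresh TI against fresh TII cells the 3 gave -0.08, 0.07 and 0.26 and so differed in sign, and under quantile normalization they gave -0.20, -0.04 and 0.12.

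Iron, copper and haem handling, the setting in which Hp, Cp and Lcn2 act, was read from 12 measured genes of 24. In fresh TI cells 1 was called higher and 7 lower (median -0.47), and in culture 3 were called higher and 2 lower (median 0.01). Lrp2, megalin, a receptor for many plasma protein complexes, fell by 2.18 ± 0.12 in fresh TI and by 2.48 ± 0.13 in culture (limma adjusted p = 1.54e-08 and 8.83e-09). Hmox1, the haem-degrading oxygenase, fell by 2.13 ± 0.42 in fresh TI cells (limma adjusted p = 0.00116) and was higher in culture by 1.27 ± 0.45 (limma adjusted p = 0.047), a call lost under several alternatives, among them quantile normalization at 1.18. Its second probe set gave 1.59 in culture (limma adjusted p = 0.00774). Tfrc, the transferrin receptor, rose by 1.63 ± 0.21 in culture (limma adjusted p = 4.21e-05).

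The signals that drive these genes in liver were read from 27 measured genes of interleukin-6 and interleukin-1 signalling, of 36 listed. In fresh TI against fresh TII cells 7 were called higher and 8 lower (median 0.08), and in culture 2 were called higher and 8 lower (median -0.16). Il6, the cytokine itself, read 7.11, 7.21, 7.10 and 7.05 in fresh TII cells, 4.88, 4.64, 4.26 and 4.62 in fresh TI cells and 5.25, 5.40 and 5.17 in culture. Its log2 difference from fresh TII cells was -2.52 ± 0.11 in fresh TI and -1.84 ± 0.12 in culture (limma adjusted p = 2.31e-09 and 7.36e-08), and its second probe set gave -0.41 and -0.54. Socs3, the feedback inhibitor that STAT3 induces, fell by 0.85 ± 0.11 and by 0.96 ± 0.12 (limma adjusted p = 4.9e-05 and 3.07e-05). Cebpa, a C/EBP factor, fell by 0.88 ± 0.08 and by 0.97 ± 0.09 (limma adjusted p = 2.02e-06 and 1.46e-06), but its second probe set gave 0.08 and -0.01, with no call.

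Cebpd, a C/EBP factor induced in the acute phase, fell by 1.36 ± 0.19 in fresh TI cells (limma adjusted p = 7.46e-05), and its other probe sets gave -1.68 and 0.12. In culture Cebpd gave -0.55 ± 0.20, which was not called. That call was gained under several alternatives, among them quantile normalization at -0.57 and leaving out cultured array 3 at -0.87. Of its other probe sets, M65149_at was called lower in culture at -0.70 (limma adjusted p = 0.0156), and rc_AA946292_at gave 0.08, which was not called. Nfkbia, the NF-kB inhibitor that NF-kB itself induces, fell by 1.06 ± 0.13 in fresh TI and by 2.86 ± 0.14 in culture (limma adjusted p = 2.83e-05 and 5.25e-09). Il1b, interleukin-1 beta, rose by 1.58 ± 0.21 in fresh TI cells and fell by 1.26 ± 0.23 in culture (limma adjusted p = 6.56e-05 and 0.000766). The other Il1b probe sets were also called higher in fresh TI cells. In culture they gave -0.58, which was not called, and -2.12. Of the interleukin-6 receptor genes, Il6r was higher in fresh TI cells by 0.81 ± 0.16 (limma adjusted p = 0.00115), and the shared signalling chain Il6st differed by -0.12 ± 0.11, which was not called. Fresh TII cells had the highest signals of Fgg, Hp, C3, Lcn2, C4bpa, Il6 and Socs3 among the 3 groups. These genes were picked from several lists. Clu and Kng2 were highest in culture. Crp was highest in fresh TI cells on 2 probe sets, while on the third the groups overlapped. A2m and Cp differed by less than 1 log2 unit. C1s, C1r, Serping1, Il1b and Il6r were highest in fresh TI cells. In fresh TI cells, 6 of 20 other acute-phase genes and 9 of 20 complement genes were called higher than in fresh TII cells. Each list had 1 called lower, beside 33.0% higher and 21.2% lower of all genes.

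The genes whose pattern over the 11 arrays was most like each gene's were listed by Pearson's r, as a description over arrays that share 3 groups. For Fgg they were both probe sets of Jun, an immediate-early transcription factor (r = 0.993 each), and Ift25 (0.993). For Hp they were Elapor1 (0.994), Bpifa5 (0.994) and Chia, an acidic chitinase (0.992). For C3 they were Jag1, a Notch ligand, Chia and Gp2 (0.992 each). Jun was lower in fresh TI than in fresh TII cells by 3.11 on the first of its probe sets, and Chia by 4.86. For Kng2 they were Mapk6, Pafah1b1 and Nop58 (0.992 each), with differences of 1.04, 0.57 and 0.85 between cultured and fresh TII cells. For Clu they were Tagln, an actin-binding protein of smooth muscle (0.993 and 0.992 on 2 probe sets), and Pdia4, a chaperone of the endoplasmic reticulum (0.992). Tagln was 4.85 and 5.03 higher and Pdia4 2.22 higher in cultured than in fresh TII cells, where Clu was 3.39 higher.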

How the data were processed

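Total RNA of 11 arrays (4 fresh TI, 4 fresh TII, 3 cultured TII) was read as deposited log2 values, 1 per probe set and array. The authors' probe summary, background correction and normalization are steps not given in the sources used here. That the deposited values are log2 was inferred from their range: the highest, 13.16, is 9172 as a log2 value and 520737 as a natural logarithm. Array medians were 5.43 to 5.51, no further scaling was applied, and 0 pairs of arrays were identical. The number of arrays limits the precision. Of 8799 probe sets, 59 controls were left out. Genes were named from the platform annotation: 7006 probe sets had 1 gene, 308 several and 1426 none, and the names may be old.

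Group means were fitted over all 11 arrays with limma 3.58.1 in R 4.3.3 (lmFit, eBayes, two-sided, Benjamini-Hochberg over 8740 probe sets, called at adjusted p under 0.05), tested on simulated data first. Folds are 2 to the power of the log2 difference. The genes and lists were chosen with earlier results of these data known. The text names all probe sets of the 8 genes, up to 4 called genes of largest difference in each list and comparison, uncalled genes whose role bears on one of the 8, markers that moved with a result, and the 3 most correlated single-gene probe sets of genes spanning at least 1 log2 unit. Socs3, Il6r and Alb fall outside that rule and were named after their values were seen, as were second probe sets. A list uses the brightest probe set of each gene. Samples with the same replicate number deviated together at r = -0.20 to 0.28 in 10 pairs, and those with different numbers at -0.27 to 0.23 in 30, so numbers were not used as pairs. Alternatives were normalization, a dimness filter, variance moderation, array weights, a block, fewer groups and leaving out each array.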

Additional observations from a re-analysis of the deposited data

Results flagged for a closer look

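In 3 of 38 pairs of a probe set and a group of 4 arrays, 1 array stood apart from the other 3 by the gap relative to the range. Chance alone flags about 1 in 20 such groups. Fgg on J00735_at read 3.34 on fresh TI array 2, where the others read 3.12 to 3.14. A2m on rc_AI113046_at read 1.77 on fresh TII array 2, where the others read 1.85 to 1.86. Cp on rc_AA817854_s_at read 4.35 on fresh TI array 3, where the others read 4.52 to 4.55. On the A2m and Cp probe sets, fresh TI and fresh TII cells differed by 0.06 and 0.07, less than the distance by which that array stood apart.

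Both probe sets outside the rule that name one of the 8 genes among several carried a called difference. K02814_g_at (Kng1, Kng2l1 and Kng2) was 1.89 higher in cultured than in fresh TII cells. X61295cds_s_at (Serinc1 and Crp) was 2.88 higher in fresh TI than in fresh TII cells.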

How the results depend on the processing

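No difference of the 8 genes that had been called changed sign under any alternative run. Of 1119 alternative values of single probe sets, 1081 stayed within 1 SD between replicates and 38 moved. Between fresh TI and cultured cells, 13 probe sets were called, and 8 after probe sets dimmer than the median were left out, which kept 12 of the 19 in the fit. With a replicate block, 12, 11 and 13 probe sets were called in fresh TI against fresh TII, cultured against fresh TII and fresh TI against cultured cells, where 12, 12 and 13 were called without it. Under quantile normalization, 3 in place of 6 other acute-phase genes were called higher and 2 in place of 1 complement genes lower in fresh TI than in fresh TII cells. The shares of all probe sets and genes called under these alternatives are not given here, so nothing is read from these counts. The precision of the small differences of A2m and Cp is limited by 3 or 4 arrays a group, and the 3 Cp probe sets were dim, at 2.60 to 4.71 on all arrays.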
